A study of Drosophila melanogaster with 2 samples.

Results

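Transfer RNA (tRNA) genes were examined for the presence of CG12769 on chromatin of Drosophila melanogaster embryos. Members were all genes whose symbol starts with tRNA: on the main nuclear chromosome arms, 295 of the 18164 annotated genes there. Of these, 290 had the biotype tRNA and 5 were annotated as pseudogenes, and all 295 were kept. Both libraries came from embryos of mixed sex, 10 to 24 h old, of a transgenic line that stably expresses CG12769 with green fluorescent protein (GFP) fused to its C-terminus. Chromatin was sonicated to fragments of 200 to 800 bp and precipitated with an antibody against GFP (ChIP-seq). All samples formed 1 group, with biological replicates numbered 5 and 7, so no treated or mutant embryos were compared and the spread between these replicates is the only replicate error. The age is that of the sample source, and a separate age entry in the labels holds a value impossible for an embryo and was not used. Neither the function of CG12769 nor the cells that make the fusion are stated in the labels. Signal from a few cells and weak signal from all cells cannot be told apart in whole embryos.

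The deposited data were 4 lists of peaks, each peak with a summit and a value: 30000 peaks for replicate 5, 30000 for replicate 7, 30000 for the pooled replicates, and 8574 that passed the authors' test of reproducibility (IDR, irreproducible discovery rate). All 8574 IDR peaks had the interval and summit of a pooled peak, and they were exactly the 8574 pooled peaks with the highest values. Membership of the IDR set and the pooled value therefore carry the same information. The value is the authors' own measure of peak strength, on a scale not given in the sources used here, and values are compared only within a list. No read counts were given, so the depth of the libraries is unknown. A gene was counted as marked in a list when a summit lay within 500 bp of its annotated 5′ end, here called its start. A tRNA gene was called isolated when no other tRNA gene started within 1000 bp, and clustered otherwise. Intervals on shares are exact (Clopper-Pearson) 95% intervals and cover counting error only.

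RNA polymerase III transcribes tRNA genes. Its promoter lies inside the gene: transcription factor TFIIIC binds an A box and a B box within the transcribed sequence, TFIIIB is then placed just upstream of the start, and the polymerase stops at a run of T soon after the end. Fruit flies carry most tRNAs in several copies, many identical in sequence and some grouped in small clusters. The B box core, searched as GTTCNANNC, was found in the sense strand of 274 of the 295 members, with its first base at a median of position 53 from the gene start. In the first 90 bases from the start and on both strands it was found at 267 members (90.5%) and at 613 of the 17869 other gene starts (3.43%). A run of TTTT within 25 bases of the gene end was found at 271 members (91.9%) and at 34.3% of the other genes.

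The sequences below are the members on which the contrasts described further on turn, read from the Release 6 genome sequence (the sequence of dm6) on the strand of each gene, 5′ to 3′. Capitals mark the B box core. Tyr-GTA-1-6 (3R:8668116-8668208, minus strand) and Tyr-GTA-1-8 (3R:8669081-8669174, minus strand) belong to the locus with the strongest summit, and both are longer than most members, as eukaryotic tyrosine tRNA genes carry an intron. Val-CAC-2-5 (3R:19672277-19672349, minus strand) had the strongest summit of 6 identical copies. Pro-TGG-1-5 (3R:18628467-18628538, minus strand) and Pro-CGG-2-2 (3L:17339909-17339980, minus strand) differ at 7 positions and contrast a proline tRNA marked at every copy with one marked at none. Lys-TTT-2-1 (3R:6819894-6819966, plus strand) stands for 5 identical copies with no summit. Arg-TCG-2-4 (3R:8862933-8863005, plus strand) and Arg-TCG-3-1 (X:14016203-14016275, plus strand) differ at 1 position. Ala-AGC-2-6 (3R:17645307-17645379, minus strand) had an IDR summit although its sequence does not hold the B box core as searched, so it has no capitals.
Tyr-GTA-1-6: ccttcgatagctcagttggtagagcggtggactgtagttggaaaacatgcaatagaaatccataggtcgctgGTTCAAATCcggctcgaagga
Tyr-GTA-1-8: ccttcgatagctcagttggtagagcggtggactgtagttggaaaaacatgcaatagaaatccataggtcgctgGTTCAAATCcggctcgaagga
Val-CAC-2-5: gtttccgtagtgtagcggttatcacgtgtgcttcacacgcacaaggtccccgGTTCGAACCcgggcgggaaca
Pro-TGG-1-5: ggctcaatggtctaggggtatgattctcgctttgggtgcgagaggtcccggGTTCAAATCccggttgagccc
Pro-CGG-2-2: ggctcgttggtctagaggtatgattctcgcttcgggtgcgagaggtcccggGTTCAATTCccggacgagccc
Lys-TTT-2-1: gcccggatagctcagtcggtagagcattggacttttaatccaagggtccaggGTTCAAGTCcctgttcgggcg
Arg-TCG-2-4: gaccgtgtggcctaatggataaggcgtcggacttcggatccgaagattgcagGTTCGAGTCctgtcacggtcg
Arg-TCG-3-1: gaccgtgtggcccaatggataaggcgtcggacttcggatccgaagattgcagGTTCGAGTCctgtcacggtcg
Ala-AGC-2-6: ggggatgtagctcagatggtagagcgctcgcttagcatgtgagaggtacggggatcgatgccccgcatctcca

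CG12769 summits lay within 500 bp of most tRNA genes, but mostly at values below the IDR set. In the pooled list 177 of 295 tRNA gene starts (60%, 54.2 to 65.6) had a summit within 500 bp, against 31.2% of all 18164 gene starts. The replicate lists gave 172 (58.3%, 52.4 to 64.0) in replicate 5 and 169 (57.3%, 51.4 to 63.0) in replicate 7, against 33.5% and 31.4% of all gene starts in the same lists. The difference from all gene starts was thus larger than the gap of 3 genes between the replicates. In the IDR set the share was 62 of 295 (21.0%, 16.5 to 26.1), against 17.0% of all gene starts, and the interval held the share of all gene starts at its lower end. Bases within 500 bp of a summit made up 17.9% of the arms for the pooled list and 5.96% for the IDR set. Neighbouring tRNA genes can share a summit. Counted by locus, 98 of 177 (55.4%, 47.7 to 62.8) had a pooled summit. With each pooled summit given to its nearest tRNA gene alone, 46.1% of the genes had one.

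The tRNA genes were next set beside starts that have no protein-coding transcription start site (TSS) in reach, because tRNA genes mostly lie away from coding promoters: 33 of 295 had a coding TSS within 500 bp and 262 did not. Among those 262, 161 (61.5%, 55.3 to 67.4) had a pooled summit and 53 (20.2%, 15.5 to 25.6) an IDR summit. Among the 3300 other noncoding gene starts with no coding TSS in reach, the shares were 21.2% in the pooled list and 8.85% in the IDR set. In the replicate lists the same comparison gave 59.5% of tRNA genes against 22.8% of other noncoding starts in replicate 5, and 58.8% against 22% in replicate 7.

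**Figure D1:**
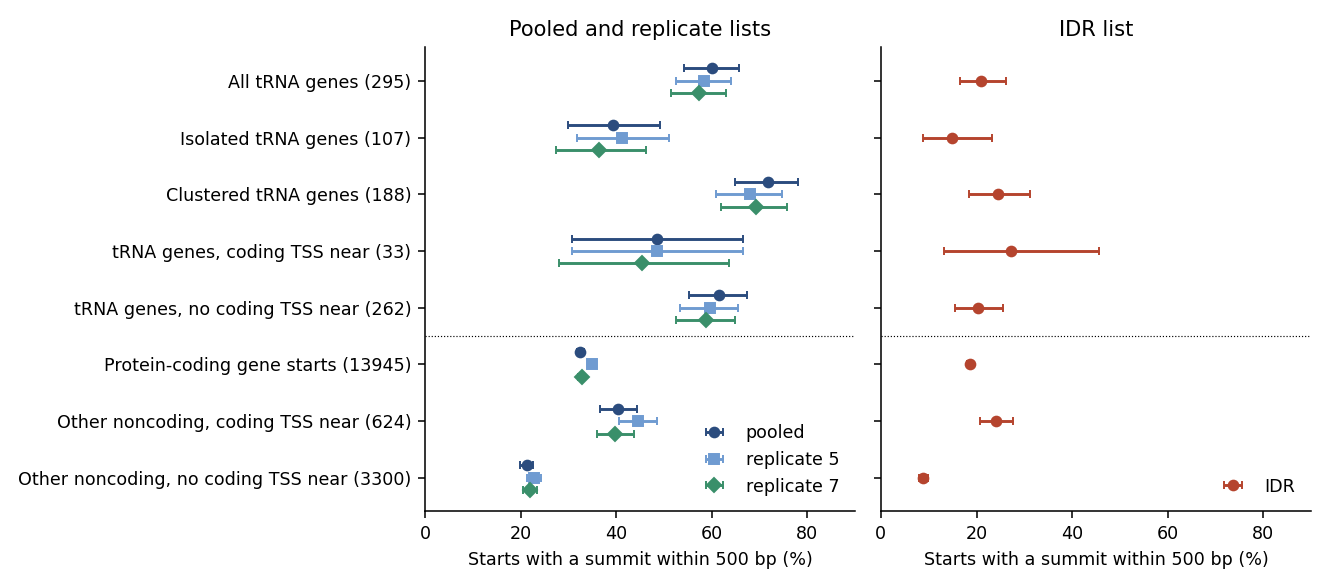
Share of gene starts with a summit within 500 bp, with exact 95% intervals, in the pooled and replicate lists (left) and in the IDR set (right). All 295 tRNA genes, isolated and clustered ones and those with or without a coding TSS within 500 bp stand above the dotted line, and other gene starts below it. In the pooled list the 188 clustered tRNA genes sit at 71.8% and the 107 isolated ones at 39.3%, while other noncoding starts away from coding TSSs sit at 21.2%.

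With a coding TSS near, 16 of 33 tRNA genes (48.5%, 30.8 to 66.5) had a pooled summit, against 61.5% of those without. The pooled difference was -13.0 percentage points (-11.1 in replicate 5 and -13.3 in replicate 7), but counted by locus it was -1.78 points in the pooled list, 2.73 in replicate 5 and 0.866 in replicate 7. In the IDR set the order was opposite, 9 of 33 (27.3%, 13.3 to 45.5) against 20.2%. That difference of 7.04 points was not stable: it was -5.10 points with the strongest peaks of replicate 7 alone and 12.7 points with those of replicate 5 alone. Other noncoding starts with a coding TSS near had a pooled summit in 40.4% and an IDR summit in 24.0%. The shares inside and outside protein-coding genes were close: 85 of 137 tRNA genes inside one (62.0%) had a pooled summit, against 92 of 158 outside (58.2%), a difference of 3.82 points (6.98 in replicate 5, 0.702 in replicate 7).

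Clustered tRNA genes were marked more often than isolated ones. Among 107 isolated genes, 42 (39.3%, 30 to 49.2) had a pooled summit, against 135 of 188 clustered genes (71.8%, 64.8 to 78.1). The difference was -32.6 points in the pooled list, -27.0 in replicate 5 and -32.7 in replicate 7, so it exceeded the 5.74 points between the replicates. In the IDR set it was -9.51 points, 15% of isolated against 24.5% of clustered genes. Neighbouring genes share summits, which raises the count for clusters: 61 of the 157 pooled summits lay within 500 bp of several tRNA genes. With each summit given to its nearest tRNA gene alone, the pooled shares were 39.3% of isolated and 50% of clustered genes, and the IDR shares 15% and 13.8%, so the IDR difference came to 1.12 points and changed its sign. Of 70 clusters, 56 (80%) had a pooled summit at some member. A cluster has several starts in reach of a summit and an isolated gene 1, which raises this share too.

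The same order was seen among members whose starts lie in mostly unique sequence. Identical tRNA copies can make short reads hard to place, so the share of 50-base words that occur once in the genome was computed. It was taken over the 500 bases centred on each start, so the outer parts of the summit window were not covered. A tRNA gene, of median length 73 bp, fills a small part of these bases. Members with identical copies elsewhere can therefore still score high. The median over members was 93.6%, and it was 93.9% for members with an IDR summit, 92.9% for members with a weaker pooled summit and 93.8% for members with none. Among the 240 members at 90% or more, 40 of 101 isolated genes (39.6%) and 104 of 139 clustered genes (74.8%) had a pooled summit. Summits shared by clustered genes still count for each gene here. By copies of the gene sequence, 52.6% of the 57 members with 1 copy had a pooled summit. The share was 60.3% of the 58 with 2 to 4 copies and 62.2% of the 180 with 5 or more. Isolated genes with no coding TSS near had a pooled summit in 38 of 99 cases (38.4%, 28.8 to 48.7), against the 21.2% of other noncoding starts. The B box core was found in 93.5% of isolated and 92.6% of clustered members. The part of neighbours, coding TSSs and repeated sequence in the difference was not tested.

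More summits lay upstream than downstream of the tRNA start. For the 157 pooled summits within 500 bp of a tRNA gene, the distance to the nearest tRNA start had a median of -46 bp (quartiles -139 and 65; negative values are upstream). Of these, 72 (45.9%) lay within 100 bp, 111 (70.7%) within 200 bp, 100 (63.7%) upstream and 20 inside the gene. The median was -41 bp in replicate 5 (151 summits) and -41 bp in replicate 7 (155 summits). By 100-bp bins, a pooled summit was found at 15.6% of all members in the 100 bp upstream of the start and at 12.2% in the 100 bp before that. The bin from the start to 99 bp downstream, which holds most of the gene, had 8.81%, and the bin from 200 to 299 bp downstream 2.03%. For isolated members the bins within 1000 bp of the start hold no other tRNA start, though bins further out can. These members had 12.1% (13 of 107) in the 100 bp upstream and 5.61% in the first 100 bp from the start. The distant bin that begins 1000 bp upstream came close to this at 10.3% (11 of 107), and the bin that begins 300 bp upstream had 8.41%.

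**Figure D2:**
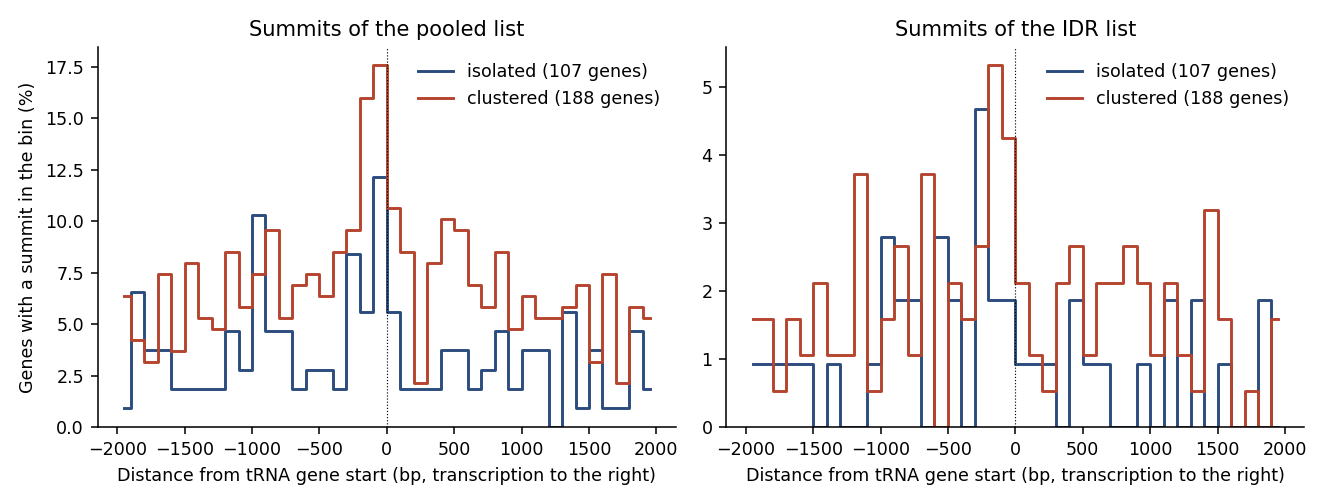
Percentage of isolated (blue) and clustered (red) tRNA genes with a summit in each 100-bp bin from 2000 bp upstream to 2000 bp downstream of the gene start, for the pooled list (left) and the IDR set (right). In the pooled list both lines are highest in the 100 bp upstream of the start, at 12.1% of isolated and 17.6% of clustered genes. The IDR panel rests on few genes per bin, at most 10.

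Gene by gene, the nearest pooled summit was at a median distance of 127 bp for the 177 marked tRNA genes, against 101 bp for 4529 marked protein-coding genes and 193 bp for 953 other noncoding genes. Upstream summits made up 65.5% of the tRNA cases, 62.2% of the protein-coding and 53.4% of the other noncoding cases. In the IDR set the median distances were 211 bp for tRNA, 113 bp for protein-coding and 207 bp for other noncoding genes. The median signed distances of IDR and weaker summits were close, -42 bp over 42 IDR summits and -47 bp over the 115 weaker pooled summits. Without regard to side, the IDR summits lay further out, with medians of 148 bp against 101 bp. Within 200 bp of the start were 24 of 42 (57.1%), against 87 of 115 (75.7%). Within 100 bp of the start were 15 of 42 (35.7%), against 57 of 115 (49.6%), but within 50 bp the order was opposite, 10 of 42 (23.8%) against 24 of 115 (20.9%). Their peaks covered the whole tRNA gene in 19 of 42 cases, against 71 of 115. Of the 42 IDR summits, 6 lay nearer to a coding TSS than to the tRNA start, against 0 of the 115 weaker ones.

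Where neighbouring tRNA genes of a cluster face away from each other, the gap between them holds both upstream regions. Among 26 such divergent neighbours 13 (50%, 29.9 to 70.1) had a pooled summit in the gap, among 70 in the same direction 21 (30%, 19.6 to 42.1), and among 22 that face each other 3 (13.6%, 2.91 to 34.9). Median gaps were 222 bp, 269 bp and 225 bp. The counts were 13, 17 and 2 in replicate 5 and 13, 18 and 3 in replicate 7, so the order held in both, though the intervals of neighbouring classes overlap. Examples among IDR summits are the gaps between Pro-AGG-1-3 and Pro-AGG-1-4, between Arg-TCT-1-1 and Met-CAT-1-1, and between Ala-AGC-2-6 and Pro-TGG-1-4. In the last, the summit (value 255.1) lay 38 bp upstream of the alanine gene and 193 bp upstream of the proline gene.

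By amino acid, marking ran over the whole range. Over all 295 members the pooled share was 60%, and over all gene starts 31.2%. All 12 isoleucine genes had a pooled summit, as did 13 of 15 valine, 17 of 21 glutamate, 8 of 10 asparagine and 8 of 10 tyrosine genes. In replicates 5 and 7 the counts were 11 and 9 for isoleucine, and 8 and 12 for valine. They were 17 and 17 for glutamate, 7 and 8 for asparagine, and 8 and 7 for tyrosine. The high place of valine was thus not seen in replicate 5. At the other end, 0 of 6 histidine genes, 1 of 6 elongator methionine, 2 of 8 tryptophan, 4 of 12 glutamine and 5 of 14 aspartate genes had one. Initiator methionine tRNA, which starts translation, had a pooled summit at 4 of its 6 genes. Glutamate had the most IDR members, 11 of 21, at 5 of its 9 loci. Asparagine had 0 IDR members, and all 8 of its marked genes were in the weaker class. The only selenocysteine tRNA gene had a pooled summit of 59.3, a replicate 7 value of 39.3 and no replicate 5 summit. Genes of an amino acid share clusters and copies, so they are not independent, and 9 of 10 asparagine and 18 of 21 glutamate genes were clustered.

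**Figure D3:**
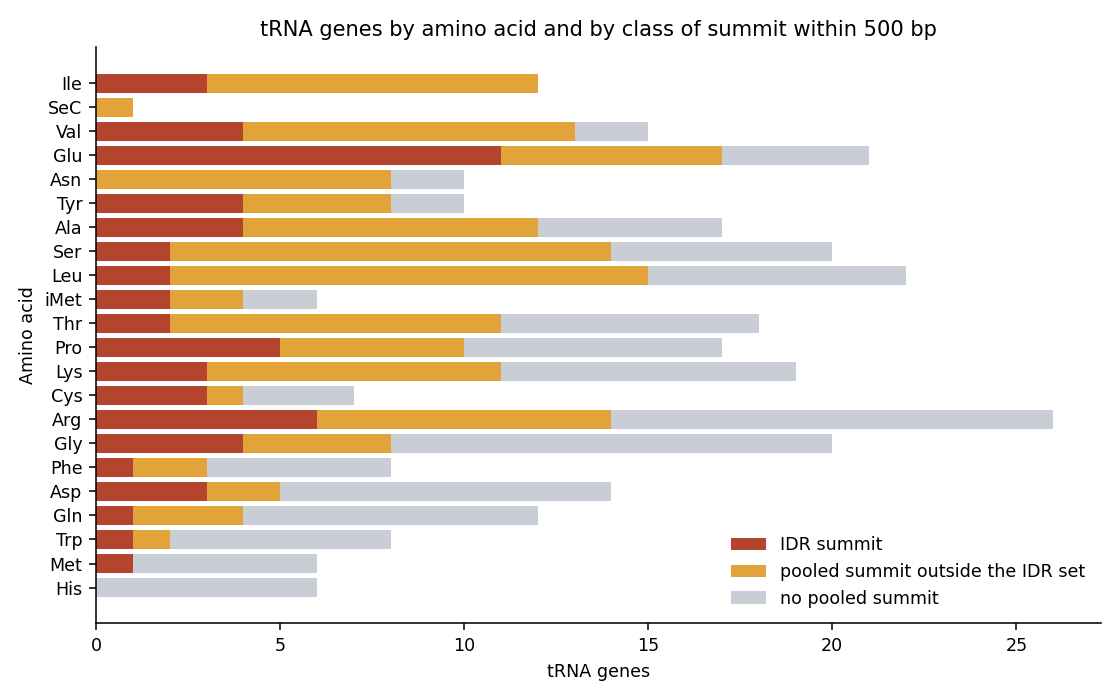
Number of tRNA genes per amino acid (iMet, initiator methionine; SeC, selenocysteine) with an IDR summit within 500 bp of the start (red), with only a weaker pooled summit (orange) and with no pooled summit (grey), ordered by the share marked in the pooled list. Isoleucine is at 12 of 12 and histidine at 0 of 6.

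Isoacceptors, tRNAs for the same amino acid with different anticodons, also differed. Proline tRNAs read the same codon family, yet all 5 Pro-TGG genes and 5 of 7 Pro-AGG genes had a pooled summit and 0 of 5 Pro-CGG genes did. The Pro-CGG genes also had no summit in either replicate list. All 5 lay isolated, whereas 4 of the 5 Pro-TGG genes were in clusters with alanine or valine tRNA genes. Among lysine genes, 10 of 13 Lys-CTT had a pooled summit, against 1 of 6 Lys-TTT, and all 5 identical Lys-TTT-2 copies had none in any list. Among arginine genes the counts were 8 of 10 for Arg-ACG and 3 of 10 for Arg-TCG.

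Identical tRNA sequences were often marked differently. The 295 members had 100 distinct sequences, and 238 members fell into 43 sets of identical copies. In 30 of the 43 sets some copies had a pooled summit and others none, in 7 every copy had one and in 6 no copy did. In 21 sets a copy with an IDR summit stood beside a copy with no pooled summit. Of the 12 identical Asp-GTC-1 copies, 2 had an IDR summit, 2 a weaker one and 8 none. The 6 Val-CAC-2 copies ranged from the summit of 586.1, 472 bp from the start of Val-CAC-2-5, through weaker ones of 70.4, 67.7, 47.6 and 47.4 to none at Val-CAC-2-2. The copies at 70.4, 47.6 and 47.4 had no replicate 5 summit, and the lowest value in the pooled list is 40.8. All 3 copies of Glu-CTC-2 had an IDR summit. Of 4 Arg-TCG-2 copies 3 had a weaker pooled summit, and of the 4 Arg-TCG-3 copies, 1 base different and all within a single cluster on X, 0 did. The unmarked Arg-TCG-2 copy, Arg-TCG-2-1, lies in that same cluster, so inside it neither sequence was marked. Members with and without a summit held the B box core about equally often, 58 of 62 with an IDR summit (93.5%), 103 of 115 with a weaker one (89.6%) and 113 of 118 with none (95.8%). What flanks these copies was not compared.

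The strongest summit at any tRNA locus stood next to 3 tyrosine genes on 3R (3R:8668116-8669174), inside the protein-coding genes CG8036 and p and with a TSS of CG8036 444 bp from Tyr-GTA-1-8. Its value was 1960.8 (rank 126 of 30000) in the pooled list, 701.3 (rank 200) in replicate 5 and 1268.0 (rank 102) in replicate 7. It lay 205 bp upstream of Tyr-GTA-1-8. The other genes of the locus had their own weaker summits close to their starts, 27 bp upstream of Tyr-GTA-1-6 (172.1, in the IDR set) and 31 bp upstream of Tyr-GTA-1-7 (116.1, outside it). All 3 genes transcribe in the same direction, and each had a summit upstream, the highest before the first of the row.

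Next came a cluster of 5 glutamate genes on 2R (2R:19727460-19729353), 13455 bp or more from the nearest coding TSS, and 5 of 5 members had an IDR summit. The highest was 1134.7 (rank 389) in the pooled list, 373.8 (rank 714) in replicate 5 and 765.6 (rank 300) in replicate 7, and lay 94 bp downstream of the start of Glu-TTC-1-5, past its end. A second IDR summit (680.6) stood 127 bp upstream of Glu-TTC-1-6 and 80 bp downstream of the start of Glu-CTC-2-1, and a further one (203.6) 15 bp upstream of Glu-CTC-2-2. The pseudogene Glu-CTC-5-1Psi, 410 bp from that last summit, counted as marked through it and had its own weaker summit 56 bp downstream of its start (111.7). Close by on the same arm, initiator methionine genes iMet-CAT-1-1 and iMet-CAT-1-2 and Glu-TTC-1-4 shared a single IDR summit of 301.3.

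**Figure D4:**
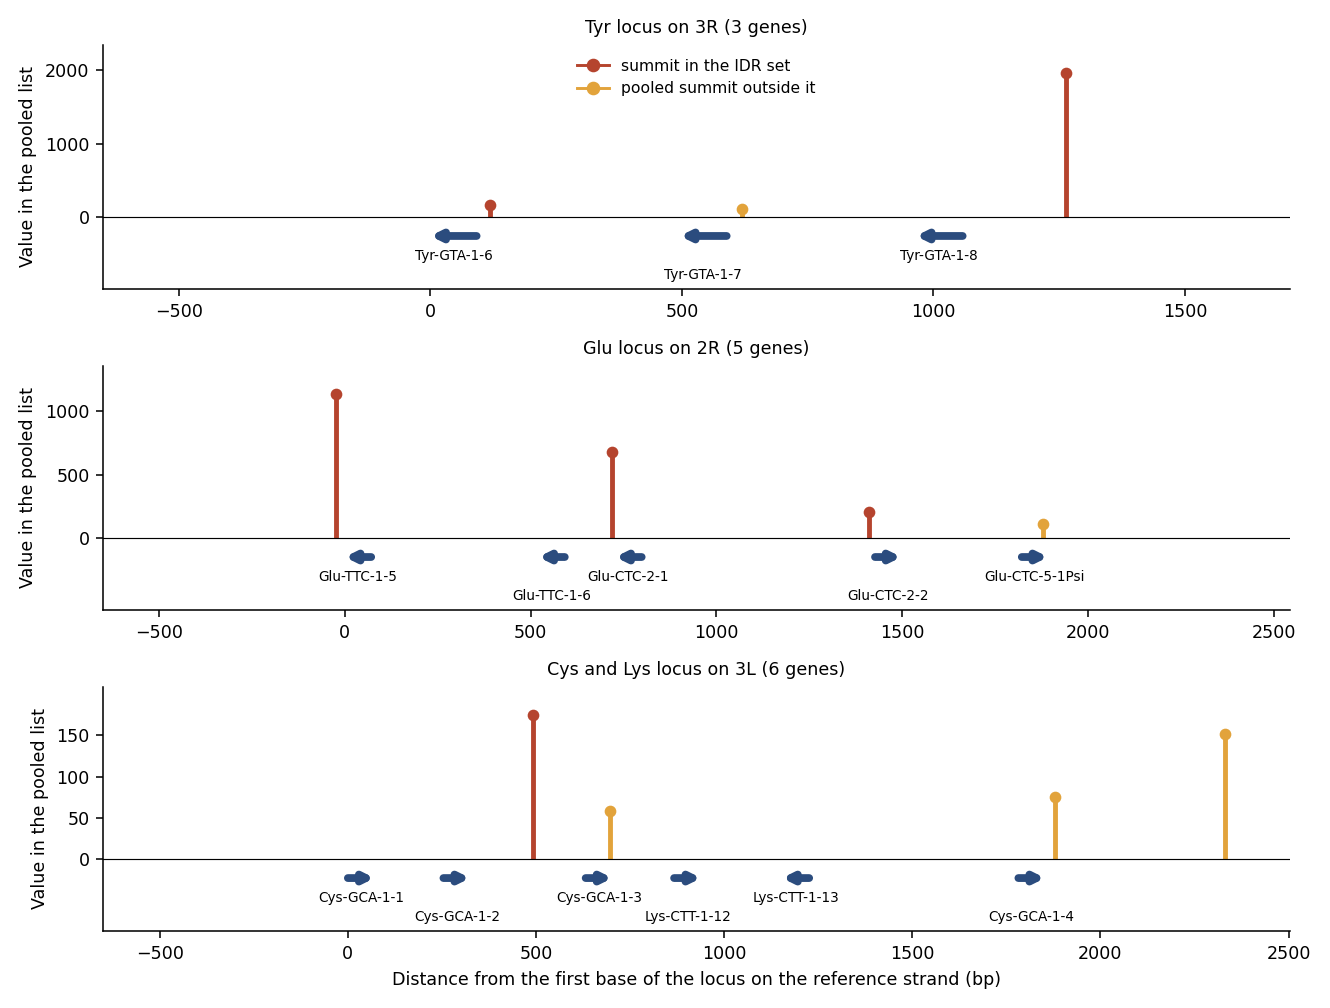
Maps of 3 tRNA loci in bp from the first base of each locus, with tRNA genes as arrows in their direction of transcription and pooled summits as stems whose height is the value in the pooled list (red, also in the IDR set; orange, outside it). The value axes differ between panels: the highest summits are 1960.8 at the tyrosine locus, 1134.7 at the glutamate locus and 174.1 at the cysteine and lysine locus.

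Other strong summits stood at varied distances. Thr-AGT-1-2 (2R:7070760-7070833), inside CG12831, had a summit of 842.6 at 290 bp upstream (356.7 in replicate 5, 496.3 in replicate 7). Ala-TGC-2-1 (2R:17392215-17392286) had 753.3 at 395 bp downstream (288.5 and 469.4). Phe-GAA-1-2 (X:6744471-6744543) had 695.1 at 250 bp downstream (291.2 and 404.2), and the TSS of the ribosomal protein gene RpL17 was 305 bp from its start. Arg-CCT-1-2 and Arg-CCT-1-3 (2R:20000296-20000891), which face away from each other, had a summit of 599.8 between them, 188 and 263 bp upstream of their starts (179.0 and 414.8). Val-CAC-2-5, inside the nicotinamidase gene Naam, had 586.1 at 472 bp downstream (188.5 and 405.6). Replicate values are given with replicate 5 first. In all of these the summit was present in both replicates, and all 5 lay 188 bp or more from the tRNA start.

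At a few strong summits near the limit of 500 bp a member had a summit in a single replicate, although both replicates had summits at the locus. Whether this came from the window or from a difference between the replicates was not tested. Ile-AAT-1-3, at the edge of a cluster of 7 isoleucine and leucine genes (2R:13430282-13432794), had a pooled summit of 553.8 at 497 bp, at the limit of the window, and a TSS of ATP8A 460 bp from its start. Replicate 5 gave 298.5 there and replicate 7 no summit within 500 bp. The highest replicate 7 value at any member of the cluster was 119.4. All 7 genes of the cluster had a pooled summit, 6 of them only a weaker one. Gly-GCC-1-9, whose pooled summit of 484.8 was shared with Trp-CCA-2-2, lay 494 bp from it and had no replicate 5 summit within 500 bp, whereas Trp-CCA-2-2 had 190.3 in replicate 5 and 290.0 in replicate 7. A coding TSS lay within 500 bp of a member of this tryptophan and glycine locus, and of the Asp-GTC-1-4 locus named below. Other loci had a summit in both replicates at the member itself. Ile-AAT-1-9 had 401.1 at 491 bp upstream (186.1 in replicate 5, 217.4 in replicate 7), Asp-GTC-1-4 and Asp-GTC-1-5 shared 394.5 (225.3 in replicate 5, 167.3 in replicate 7), and Val-AAC-2-3 had 358.25 at 149 bp upstream (140.9 in replicate 5, 218.1 in replicate 7).

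Away from coding TSSs, several loci had a summit close to the tRNA start. Ser-CGA-1-4 (2R:19414598-19414679), inside hts, had 356.8 at 27 bp upstream (168.2 in replicate 5, 204.4 in replicate 7). Pro-AGG-1-3 (2L:14599396-14599467), inside osp, had 353.0 at 28 bp upstream (160.1 and 204.3). Arg-ACG-1-4 had 349.7 at 58 bp into the gene (174.3 and 167.3), a summit that also lay 177 bp upstream of Lys-CTT-1-5. Pro-TGG-1-5, an isolated gene inside qin, had 330.3 at 32 bp into the gene (124.3 and 197.7). Arg-ACG-1-4, Pro-TGG-1-5 and Glu-TTC-1-2 (250.45, 55 bp into the gene, 122.6 and 135.0) were the 3 members with an IDR summit inside the gene. Leu-CAA-2-3 (3R:23601333-23601455) had 328.7 at 139 bp upstream, Asp-GTC-2-1, inside the BMP receptor gene tkv, 304.4 at 106 bp upstream, and Pro-AGG-1-1 296.8 at 106 bp upstream. All of these summits were present in both replicates.

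The other large clusters had low values. The cluster of 4 cysteine and 2 lysine genes inside the chitinase gene Cht7 (3L:3095737-3097590) had 4 of 6 genes in the IDR class, all through a single summit of 174.1 (42.5 in replicate 5, 151.7 in replicate 7), and 5 with a pooled summit. Its rank was 5138 in replicate 7 and 15617 in replicate 5, so the replicates differed widely here. The cluster of asparagine and Arg-ACG genes on 3R (3R:8139533-8141042) had a weaker pooled summit near 6 of 6 genes, at most 93.0 (29.3 in replicate 5, 76.7 in replicate 7). In the cluster of arginine, asparagine and lysine genes on 2R (2R:6161535-6162753) 4 of 5 genes had a weaker pooled summit, at most 112.6 near Asn-GTT-1-4, the highest at any asparagine gene. The cluster of Arg-TCG and Ser-CGA genes on X (X:14014814-14017284) had a pooled summit near 2 of 7 genes, at 43.4, close to the lowest value in the list (40.8).

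Many tRNA genes lie in and beside EcR, the gene of the ecdysone receptor, and this stretch was chosen after its values were seen. The 16 tRNA genes of 2R:6142165-6171759, 13 of them inside EcR, comprised 13 with a pooled summit and 5 with an IDR summit. Of the 13 inside EcR, 10 had a pooled summit and 2 an IDR summit. Over all 295 members the shares were 60% in the pooled list and 21.0% in the IDR set. Lys-CTT-1-1, inside EcR, had the lowest IDR value of any member (170.6, 81 bp upstream), shared with Arg-ACG-1-1. On arm 2R as a whole 33 of 100 members had an IDR summit, against 8 of 41 on 2L, 8 of 49 on 3L, 10 of 79 on 3R and 3 of 26 on X. In the pooled list the arms gave 67 of 100, 20 of 41, 31 of 49, 49 of 79 and 10 of 26.

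At the limit between the IDR set and the rest, members on either side had nearly equal values. Just inside were Lys-CTT-1-1 at 170.6, Tyr-GTA-1-6 at 172.1, Cys-GCA-1-3 at 174.1 and Ile-AAT-1-2 at 177.8. Just outside were Asp-GTC-1-6 at 167.5, Ile-AAT-1-4 at 167.0, Pro-AGG-1-2 at 166.35 and Tyr-GTA-1-3 at 152.4, and all 4 had a summit in both replicates. Of the 157 pooled summits at tRNA starts 42 (26.8%, 20 to 34.4) were in the IDR set, against 46.5% of those at protein-coding starts, 39.5% of those at other noncoding starts and 28.6% of all 30000 pooled peaks. The share of the whole list thus lay inside the interval for tRNA starts. The median pooled value was 100 at tRNA starts, 156.2 at protein-coding and 128.1 at other noncoding starts, and 98.1 over the list. The 2143 strongest of the 8574 IDR peaks held 10 of the 42 IDR summits at tRNA starts, at 9 tRNA loci.

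The replicates marked largely the same tRNA genes. A summit was present in both lists at 146 of 295 members, in replicate 5 alone at 26, in replicate 7 alone at 23 and in neither at 100. Of the 62 IDR members 60 had a summit in both, of the 115 weaker ones 81, and of the 118 with no pooled summit 5. Over the 84 loci with a summit in both lists, the highest values had a Spearman rho of 0.851, given as a description across loci of the same libraries. At 57 of these loci the rank was higher in replicate 7, at 27 in replicate 5. Among the members with no pooled summit, the highest replicate value was 174.9 (rank 2724) near Leu-TAA-2-1 in replicate 5, with no summit there in replicate 7, and this gene was picked after its values were seen.

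**Figure D5:**
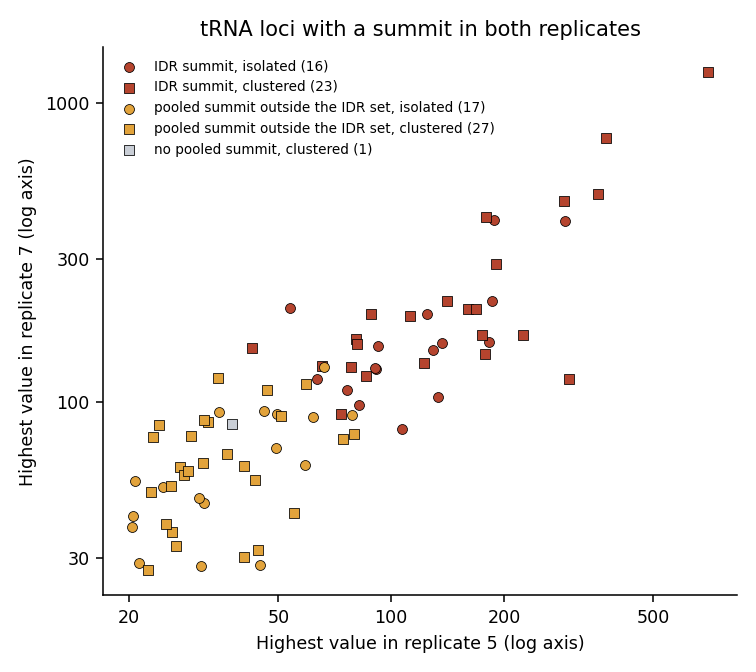
Highest value per tRNA locus in replicate 5 (horizontal) against replicate 7 (vertical), both on log axes, for the 84 loci with a summit within 500 bp of a member in both lists. Circles are isolated genes and squares clusters; red loci have an IDR summit, orange ones only a weaker pooled summit and grey none. Red loci sit above and to the right of most orange ones, and the tyrosine locus stands at the upper right corner at 701.3 and 1268.0.

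Tyrosine, serine and leucine tRNA genes are longer than others, through introns or a long variable arm. Of the 53 members over 80 bp, which also include both Ile-TAT genes and the selenocysteine gene, 39 (73.6%, 59.7 to 84.7) had a pooled summit and 8 (15.1%, 6.75 to 27.6) an IDR summit, against 60% and 21.0% of all members. The 21 members without the B box core as searched had a pooled summit in 16 cases (76.2%, 52.8 to 91.8) and an IDR summit in 4. Of these 21, 11 were the identical Ala-AGC-2 copies, of which 1 had an IDR summit, 8 a weaker one and 2 none. The share thus rests largely on a single sequence. The 24 without a T run had a pooled summit in 12 cases.

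Genes whose products make, charge or process tRNAs were read with the same window at any of their TSSs. Of 20 cytosolic aminoacyl-tRNA synthetase genes, whose enzymes load tRNAs with amino acids, 5 had a pooled summit and 2 an IDR summit, GluProRS (823.8) and HisRS (219.4). Of 16 genes for RNA polymerase III and its factors, 5 had a pooled and 3 an IDR summit: Brf, a TFIIIB subunit (1120.8), and the polymerase subunit genes Polr3E (275.3) and Polr3G (225.4). Of 15 genes for tRNA processing and modification, 6 had a pooled and 5 an IDR summit. Those with an IDR summit were Elp6 (4181.8) of the Elongator complex, which modifies the tRNA wobble base, Rtca (446.2), Archease (304.5) and RtcB (205.3), which act in RNA end repair and tRNA ligation, and RNaseZ (206.5), which trims tRNA 3′ ends. Among 9 other RNA genes, listed here under RNA polymerase III without a check of each, 4 had an IDR summit. They were snRNA:7SKa (2098.6, rank 106), RNaseMRP:RNA (1848.4, rank 143), and snRNA:U6:96Ab and snRNA:U6:96Ac, which shared a summit of 394.6. The strongest tRNA summit, 1960.8, lay between the first pair. At Elp6 the IDR summit stood at another TSS than the gene start, where the pooled value was 77.0, outside the IDR set. These counts stand beside 17.0% in the IDR set and 31.2% in the pooled list over all gene starts, which were read at the gene start alone.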

How the data were processed

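ChIP-seq of GFP-tagged CG12769 was read from 4 deposited narrowPeak lists on dm6, in which the signal value of each peak is the authors' own. Per the submitters' notes deposited with the lists, the other 3 lists were the input of the IDR step. The aligner, the peak caller and their thresholds, and what was done with reads that map repeatedly, were not given in the sources used here. No control library was used here. Gene positions came from Ensembl release 115 (BDGP6.54), without transposable elements, and sequences from the RefSeq copy of Release 6. Scripts used Python 3.11.15, pandas 2.3.3, numpy 2.4.6 and scipy 1.17.1, and summit assignment was tested on simulated data. Ranks were taken within each list. No test across genes was run. Shares are described with exact intervals beside those of other gene starts. Alternatives were windows of 200 and 1000 bp, peak overlap with the gene, the strongest 2143 IDR peaks, loci as units, cluster distances of 500 and 5000 bp, a coding TSS within 1000 bp, single replicates, and summits given to the nearest tRNA gene alone. Members, lists and settings were chosen with earlier results of these data known. A gene of the tRNA processing list is not reported here and is left out of that list's counts. Named genes were the 12 loci with the highest IDR value, the strongest member of each amino acid, up to 8 further loci away from coding TSSs, all loci of 5 or more genes, 4 members on each side of the IDR limit and members with an IDR summit inside the gene.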

Additional observations from a re-analysis of the deposited data

How the results depend on the processing

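No paired analysis was possible because there is 1 group, so replicate numbers pair no samples across groups. Of 89 alternative values, 47 stayed within the counting error of the value reported (for the median distance, within 15.6 bp, the SD of the replicate medians), 41 moved outside it and 1 changed sign. Leaving out a replicate moved no share outside its interval, and gave median IDR distances of -62 to -40 bp, against -42 bp.

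With a window of 200 bp the shares were 10.2% IDR and 38.6% pooled for all members, 5.61% and 24.3% for isolated, 12.8% and 46.8% for clustered, 3.03% and 21.2% with a coding TSS, and 11.1% and 40.8% without. With 1000 bp they were 30.8% and 72.9% for all, 25.2% and 53.3% for isolated, 34.0% and 84.0% for clustered, and 30.9% and 74.8% without a coding TSS. Counting peaks that overlap the gene gave 7.80% and 36.9% for all, 4.67% and 23.4% for isolated, 9.57% and 44.7% for clustered, 3.03% and 21.2% with a coding TSS, and 8.40% and 38.9% without. The 2143 strongest IDR peaks gave 4.41% for all, 1.87% for isolated, 5.85% for clustered and 3.05% without a coding TSS. Counted by locus, clusters stood at 32.9% IDR and 80% pooled. With each summit given to its nearest tRNA gene alone, a setting added after the data were seen, the shares were 14.2% and 46.1% for all, and 13.8% and 50% for clustered. The median IDR distance was -106 bp within 1000 bp, -77.5 bp from the middle of the gene and 87 bp, downstream, over the 10 summits among the 2143 strongest IDR peaks, and the cause was not tested.

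The pooled order of isolated below clustered genes kept its sign in all 9 alternatives (-40.7 to -10.7 points), and the IDR order in 9 of 10, the exception being summits given to the nearest gene alone. The value of -40.7 points came from counting by locus, where a cluster counts through any of its members and so has more reach than an isolated gene. The pooled order of genes with a coding TSS below those without kept its sign in all 7 (-19.6 to -1.78 points), and the IDR order was split, 4 to 4 (-8.04 to 12.7 points). Counting by locus within a single replicate was not among the 7, and there the sign was opposite (2.73 points in replicate 5, 0.866 in replicate 7). The pooled settings were added after the data were seen. Depth is unknown, and each replicate and pooled list ends at 30000 peaks, so a gene without a summit is not shown to lack signal.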
